A study of Mus musculus with 27 samples.

Results

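The Hoxc cluster is the group of Hoxc genes on mouse chromosome 15, and its DNA methylation was mapped here in C2C12 cells, a line of mouse skeletal muscle myoblasts. The members are all positions of the deposited table between 102915000 and 103040000 on chromosome 15 (mm10, from Hoxc13 to Hoxc4) with a level in all 27 libraries. There were 508 such positions of 871894 in the whole table. They were joined into runs where neighbours lay no more than 200 bp apart, which gave 18 runs of 3 to 139 positions and 44 to 1497 bp. The myoblasts had been moved to medium with 2% horse serum to differentiate into myotubes, then shocked with 50% horse serum for 2 h. DNA was taken at 9 time points, 12, 18, 24, 30, 36, 42, 48, 54 and 60 h after the shock, with 3 libraries at each. All 27 libraries therefore share the line, the differentiation and the shock, and unshocked cells were not analysed here. Levels come from reduced representation bisulfite sequencing, in which a restriction enzyme selects short fragments, so that only part of the cluster was read. These are methylation levels alone, and the label of the cells was not checked against marker expression.

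Hox genes encode homeodomain transcription factors that give the body axis and the limbs their regional identity. Their order along the chromosome matches the order in which they are used along the body, with Hoxc4 at the anterior end and Hoxc13 at the posterior end. All protein-coding genes of the cluster are transcribed in the same direction. Hox gene starts are rich in CpG and are classically kept free of DNA methylation, with silencing left to Polycomb proteins, while methylated Hox starts are a known feature of cultured and transformed cells. Hotair, a long non-coding RNA known for its binding to Polycomb, lies between Hoxc12 and Hoxc11, and the microRNA genes Mir196a-2 and Mir615 lie upstream of Hoxc9 and within Hoxc5.

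The RefSeq tables held a start sequence for 1 of the 9 Hoxc genes, Hoxc4, where no position was measured. The start window of Gm29905, a long non-coding RNA transcribed away from Hoxc6, reaches across the start of Hoxc6. Its stretch up to that start is shown because it holds positions of the table and lies directly before Hoxc6, within the 216 bp between the last run upstream of the gene, which was almost unmethylated, and the gene start. It covers chr15:102998118-102998225 (GRCm38.p6, the assembly of mm10), is written on the plus strand, and its capitals mark CpG sites.
Hoxc6 upstream: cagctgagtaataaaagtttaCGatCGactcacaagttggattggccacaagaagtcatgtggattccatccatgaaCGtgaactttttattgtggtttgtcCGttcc
The stretch has 108 bases, 4 CpG sites and 41.7% G and C, and the letters CCGG (the same on both strands, the site of the enzyme MspI) are not in it. Of the 32851 RefSeq gene starts, 33.4% held CCGG in their own 108 upstream bases. The table had a row at the first 2 of these CpGs, 87 and 83 bp before the Hoxc6 start, and both lacked a value in 6 libraries. With 1 further such position just upstream they had a mean of 4.05% over 21 libraries. Of those libraries 19 stood at 0 and 2 above 10%, the highest at 70.0%.

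Coverage was uneven along the cluster. Kept positions lay in the spans of Hoxc13 (110), Hoxc12 (27), Hoxc11 (91), Hoxc10 (42), Hoxc9 (17), Hoxc8 (50), Hoxc6 (8) and Gm29905 (3). Hotair, Mir196a-2, Mir615, Gm36878, Gm30528, Hoxc5 and Hoxc4 had none, and the last 40679 bp of the interval had no run. The number of reads behind a level is unknown. Neighbouring levels were not independent: over pairs of positions within a run, the deviations of the 27 libraries had a mean correlation of 1.00 at 1 bp, 0.979 at 2 to 20 bp, 0.477 at 51 to 100 bp and 0.0431 beyond 100 bp. These pairs share their libraries. Whether levels had been smoothed over neighbours before deposit is not stated in the labels, so a level at 1 position or in a 100 bp bin may draw on positions around it. Joining positions 1 bp apart left 357 groups, some of which hold more than 1 CpG. Libraries differed in how many of the 508 positions they had at 0, from 3.94% in replicate 2 of 48 h to 36.8% in replicate 2 of 30 h, and the part of this in the spread between libraries was not tested.

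Most of the measured runs, which cover 6514 bp of the interval, were almost free of methylation, and 4 runs were not. Of the 18 runs, 14 had a mean level under 10%, between 1.78% and 7.91%. The exceptions were the 5′ part of Hoxc12 at 47.7% ± 10.1 (SD over 27 libraries), the 3′ end of Hoxc12 at 97.1% ± 1.73, the start of Hoxc8 at 83.2% ± 4.14 and a run between Hoxc8 and Hoxc6 at 95.3% ± 2.41. Of the 508 positions, 416 (81.9%) lay under 10%, 44 (8.66%) between 10% and 75%, and 48 (9.45%) above 75%. In the whole table, 57.4% of 18447 runs lay under 10% and 7.42% above 75%, against 77.8% and 16.7% of the Hoxc runs, a description with no test.

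**Figure D1:**
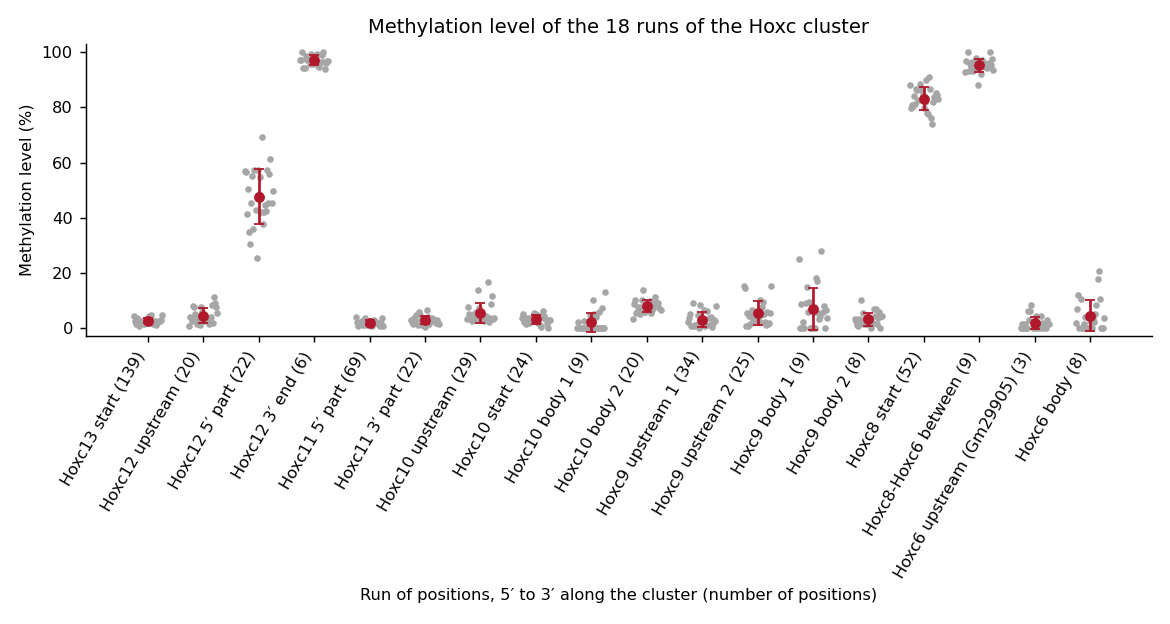
Methylation level (%) of each of the 18 runs, in order along the cluster, with the number of positions in parentheses. Grey points are the 27 libraries and red points with bars are means ± SD; 14 runs sit under 10%, and those of Hoxc12, the Hoxc8 start and the stretch between Hoxc8 and Hoxc6 stand above.

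The cluster opened with its longest run, across the start of Hoxc13, a regulator of hair and nail keratins. It spans 102920622 to 102922118 and stood at 2.72% ± 1.03. Its lowest library had 0.755%, its median library 2.62% and its highest 4.64%, so all 27 were near 0. Within it the level was lowest just inside the gene (1.02% ± 1.32 over 30 positions between 100 and 199 bp from the start). It was 4.76% ± 6.49 over 5 positions from -500 to -401 bp and 5.49% ± 6.77 over 10 positions from 900 to 999 bp.

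Hoxc12, a posterior gene of the hindlimb and tail region, was the first break. A run 1642 bp upstream of it (102935059 to 102935184, 20 positions) was still low, at 4.53% ± 2.84, with 0.778%, 4.06% and 11.2% in the lowest, median and highest library. The run at its 5′ part (102936835 to 102937031, 22 positions, starting 9 bp inside the gene) stood at 25.5% in the lowest, 45.5% in the median and 69.2% in the highest library. Libraries were thus spread widely around the middle, and 11 of 27 lay above 50%. The run at its 3′ end (102938461 to 102938632, 6 positions) stood at 93.9%, 97.0% and 100% in the lowest, median and highest library. Within the 1784 bp of the gene, the level thus went from intermediate to nearly complete.

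The 5′ part of Hoxc12 also had the largest spread between libraries of the 18 runs. Its SD of 10.1 points compares with a median SD of 6.69 points over the 769 runs of the genome whose mean lay within 5 points of its own, and 78.0% of those runs had a lower SD. They were not matched by number of positions. Along the run the level was 43.8% ± 11.2 in the first 100 bp of the gene and 49.2% ± 12.3 in the next. A further 11 positions just downstream (102937139 to 102937201), which lacked a value in 1 library, averaged 60.3% ± 20.5 over 26 libraries. With them the run stood at 51.8%.

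Past Hotair the level fell back to near 0 at Hoxc11 and Hoxc10, which pattern the hindlimb and the lumbosacral spine. The 5′ part of Hoxc11 (102954664 to 102955231, 69 positions) stood at 1.89% ± 0.910 and its 3′ part (102956389 to 102956667, 22 positions) at 2.92% ± 1.40, and no library exceeded 10% in either. In the 5′ part the lowest library had 0.620%, the median 1.79% and the highest 4.13%. Hoxc10 had 4 runs. They stood at 5.47% ± 3.55 upstream (102965395 to 102966132), 3.13% ± 1.53 across the start (102966503 to 102966980), and 2.06% ± 3.55 (102967213 to 102967327) and 7.91% ± 2.22 (102967662 to 102967922) further inside. Across the Hoxc10 start the lowest library had 0, the median 3.27% and the highest 6.09%. In the first 100 bp of Hoxc10 the level was 1.78% ± 1.53 over 5 positions.

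The last Hoxc10 run was uneven. Its first 5 positions averaged 12.1% and its last 5 averaged 3.75%, a difference of -8.38 points ± 7.52, and the last positions were the higher ones in 2 of 27 libraries. At its first position (102967662) the mean was 17.3% ± 18.0, the highest of any position in the 14 low runs. There the median library stood at 12.5% and the highest at 85.7%.

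Hoxc9, a gene of the thoracic region, had 4 low runs, and some of them varied from library to library. Those upstream stood at 3.10% ± 2.59 (102975851 to 102976248) and 5.43% ± 4.24 (102976476 to 102976975), and those inside at 6.93% ± 7.64 (102977213 to 102977286) and 3.20% ± 2.35 (102977689 to 102977763). In the first of the inner runs, a block of 9 positions, the lowest library had 0, the median 5.67% and the highest 28% (54 h, replicate 1). Most libraries were low and 5 of 27 exceeded 10%. Its SD was higher than that of 97.7% of the 8868 runs with a mean within 5 points. Those runs were not matched by number of positions.

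Hoxc8, which acts in the thoracic spine and in brachial motor neurons, was methylated at its start. A run crossed the start itself only at Hoxc13, Hoxc10 and Hoxc8. Of the 7 Hoxc genes with kept positions from 1000 bp before to 500 bp after the start, only Hoxc8 exceeded 75% there. Its run (102990513 to 102991258, 52 positions, or 37 after joining those 1 bp apart) crosses the start at 102990539. It stood at 74.0% in the lowest, 83.1% in the median and 91.1% in the highest library, so none of the 27 came near the low runs. The level was higher further into the gene. It was 73.3% ± 5.68 in the first 100 bp (12 positions), 90.4% ± 6.55 between 300 and 399 bp (14 positions) and 96.2% ± 2.15 between 700 and 799 bp (3 positions). The last 5 positions (95.6%) were 23.4 points ± 6.75 above the first 5 (72.2%), and above them in 27 of 27 libraries, a description with no test. The lowest position of the run was at 102990726 (66.8%), and 3 positions between 100 and 199 bp averaged 67.3% ± 18.7, with 25.3% in the lowest and 100% in the highest library.

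**Figure D2:**
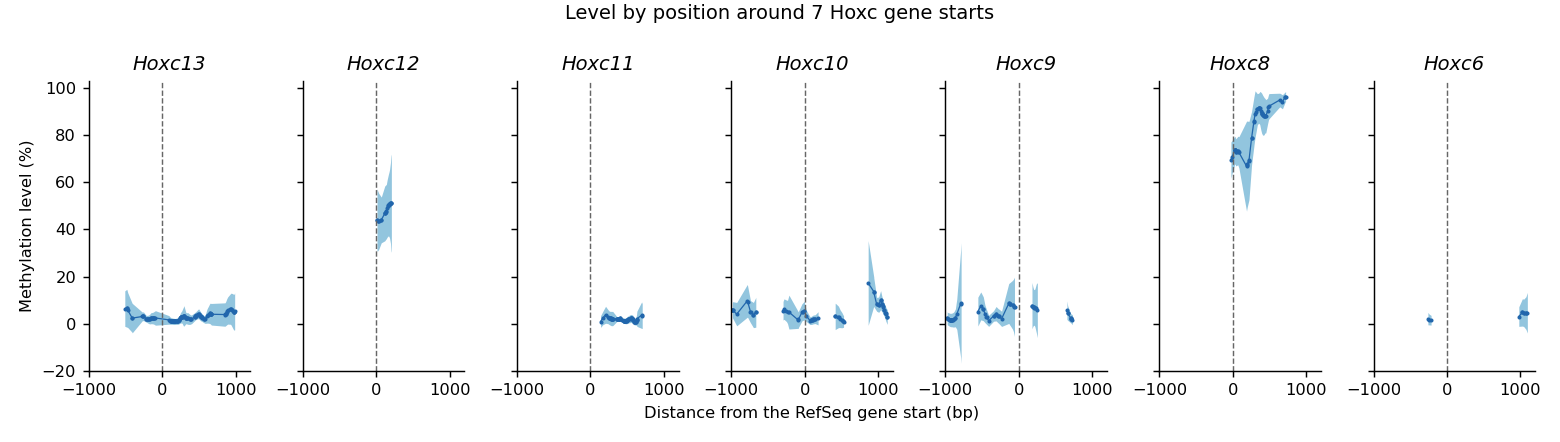
Methylation level (%) by distance (bp) from the RefSeq start of 7 Hoxc genes, marked by the dashed line. Points are means over 27 libraries, bands are ± 1 SD (drawn also where they pass below 0), and gaps hold no kept position; the Hoxc8 panel goes from 73.3% in the first 100 bp to 96.2%, the Hoxc12 run averages 47.7% and the low runs of the other panels average at most 7.91%.

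The next run downstream of Hoxc8 was methylated as well, with no kept position in the 5418 bp between them, and the level was low again before Hoxc6, a gene of the cervical and thoracic region and of mammary gland development. A run 2401 bp past the end of Hoxc8 (102996676 to 102996804, 9 positions) stood at 88.2% in the lowest, 95.6% in the median and 100% in the highest library. The next run lies 1163 bp further, within Gm29905 and 216 bp before Hoxc6 (102997967 to 102998010, 3 positions). There the level was 1.78% ± 2.29, with 0, 1.48% and 8.33% in the lowest, median and highest library. The last run, inside Hoxc6 (102999205 to 102999321, 8 positions), stood at 4.43% ± 5.58, with 0, 2.59% and 20.6%, and 5 libraries exceeded 10%. The runs on either side of this 1163 bp gap did not overlap in any library.

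Whether the mean step from a run to the next differed from 0 was asked with a two-sided sign-flip permutation test. It used the 27 within-library differences, with p-values adjusted over all 8204 pairs of neighbouring runs of the genome up to 20 kb apart. A step can pass this test while it is smaller than its SD over libraries, as from before Hoxc6 into the gene (2.65 points ± 6.29, higher in 16 of 27). Of 17 Hoxc pairs, 15 differed, 10 upward and 5 downward toward Hoxc4, and 88.2% compares with 80.2% of all pairs, so the share called is near the background. The steps differed in size. From the upstream run to the 5′ part of Hoxc12 the level rose by 43.1 points ± 10.4 (SD), higher in 27 of 27 libraries. From there to the 3′ end of Hoxc12 it rose by 49.4 points ± 10.2, again in 27 of 27. From the 3′ end of Hoxc12 to Hoxc11 it fell by 95.2 points ± 2.04, across 16032 bp with no kept position. Into Hoxc8 it rose by 80.0 points ± 4.44, across 12750 bp with no kept position. From Hoxc8 to the next run it rose by a further 12.1 points ± 5.24, and each rise held in 27 of 27 libraries. Before Hoxc6 it fell by 93.5 points ± 3.16. Each of these steps had a permutation p of 1e-05, the smallest 100000 draws can give (adjusted 1.75e-05). Steps of over 50 points that passed made up 3 of the 17 Hoxc pairs (17.6%), against 18.4% of all pairs.

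The other steps were small. They ran from 1.04 points ± 1.75 (within Hoxc11, adjusted permutation p 0.00534) to 5.86 points ± 4.09 (within Hoxc10, adjusted permutation p 1.75e-05) in size where they passed. Those that did not pass were the step from the start of Hoxc10 to the next run (-1.07 points ± 3.90, adjusted permutation p 0.191) and the one from the run just upstream of Hoxc9 into the gene (1.5 points ± 8.60, adjusted permutation p 0.421).

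Within genes, starts lay well below bodies at Hoxc12 and Hoxc8, and differences at the low genes were a few points. A start window ran from 1000 bp before to 500 bp after the gene start, the body was the rest of the gene, and 7 Hoxc genes had at least 3 positions in both. The body positions were few at Hoxc12 (5), Hoxc8 (5), Hoxc9 (8) and Hoxc6 (8), and more at Hoxc10 (24), Hoxc13 (37) and Hoxc11 (48). At Hoxc13 and Hoxc8 all of them belong to the run that holds the start, so the rest of these genes was not read. At Hoxc6 start and body are the same runs as in a step given above, and nearly so at Hoxc12. The differences at Hoxc6 and Hoxc12 are therefore not separate from those steps. Starts were lower in 5 of the 7 (71.4%) and higher in 0, against 51.3% lower and 20.8% higher among all 5030 genes tested in the same way. The count was 4 of 7 without replicate 3 of 12 h, and nothing particular to the cluster is read from it. At Hoxc12 the start differed from the body by -49.3 points ± 10.2 (47.7% against 96.9%) and at Hoxc8 by -13.7 points ± 5.12 (81.9% against 95.6%), both lower in 27 of 27 libraries. At the low genes the differences were -2.92 points ± 2.21 at Hoxc10 (lower in 26 of 27), -1.98 points ± 2.84 at Hoxc13 (lower in 21 of 27) and -2.65 points ± 6.29 at Hoxc6 (lower in 16 of 27). Adjusted permutation p-values over all genes were 2.21e-05 for Hoxc12, Hoxc8 and Hoxc10, 0.000668 for Hoxc13 and 0.0481 for Hoxc6.

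Hoxc11 (-0.400 points ± 1.28, adjusted permutation p 0.148) and Hoxc9 (1.28 points ± 3.56, adjusted permutation p 0.0956) did not pass. The call at Hoxc6 rests on 3 and 8 positions and was lost without replicate 3 of 12 h (adjusted permutation p 0.0870), the library that lacked the most values in the whole table (21925). Hoxc9 passed with a start higher than its body when the window was 500 bp on either side (2.60 points, adjusted permutation p 0.00866).

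A change over the time course was asked with limma over all 18447 runs of the genome and all 27 libraries. No Hoxc run passed for a 24 h rhythm, for any difference between time points, for a linear trend or for 60 h against 12 h at an adjusted p of 0.05. Over the genome 0% of runs passed for the rhythm, 0.00542% for any difference between time points, 0% for the trend and 0% for 60 h against 12 h. At an unadjusted p under 0.05, 1 of the 18 Hoxc runs passed for the rhythm (4.34% of all runs), 0 for any difference between time points (4.3% of all runs), 0 for the trend (4.99% of all runs) and 1 for 60 h against 12 h (5.33% of all runs). These counts are near the background.

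At the 5′ part of Hoxc12 the 3 libraries of a time point often lay far apart. At 12 h they stood at 57.0%, 56.7% and 41.5%, at 18 h at 50.6%, 34.8% and 30.7%, at 42 h at 42.2%, 69.2% and 37.8%, and at 48 h at 42.2%, 44.8% and 42.3%. Most time points overlapped, and only 48 h was tight. Its libraries lay below all those of 36 h (lowest 48.6%), 54 h (45.5%) and 60 h (45.3%). Time point means ran from 38.7% ± 10.5 (18 h; SD, n = 3) to 53.6% ± 4.47 (36 h), a range of 14.9 points beside a pooled SD within time points of 10.3. The fitted 24 h amplitude was 4.61 points (SE 2.53) with an upper 95% limit of 11.8, and 60 h minus 12 h was 0.336 points (95% interval -16.5 to 17.2). Differences within these limits are not excluded at this run.

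The start of Hoxc8 varied over fewer points. Time point means ran from 79.9% ± 5.12 (54 h) to 85.9% ± 2.69 (30 h), a range of 6.05 points beside a pooled SD of 4.42. At 30 h the 3 libraries stood at 88.4%, 86.2% and 83.1%, and at 54 h at 74.0%, 81.9% and 83.6%, so the ranges overlapped. The amplitude was 0.935 points (SE 1.12) with an upper 95% limit of 4.04, the slope -0.846 points over 48 h (95% interval -5.88 to 4.19) and 60 h minus 12 h 1.27 points (95% interval -6.03 to 8.57).

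**Figure D3:**
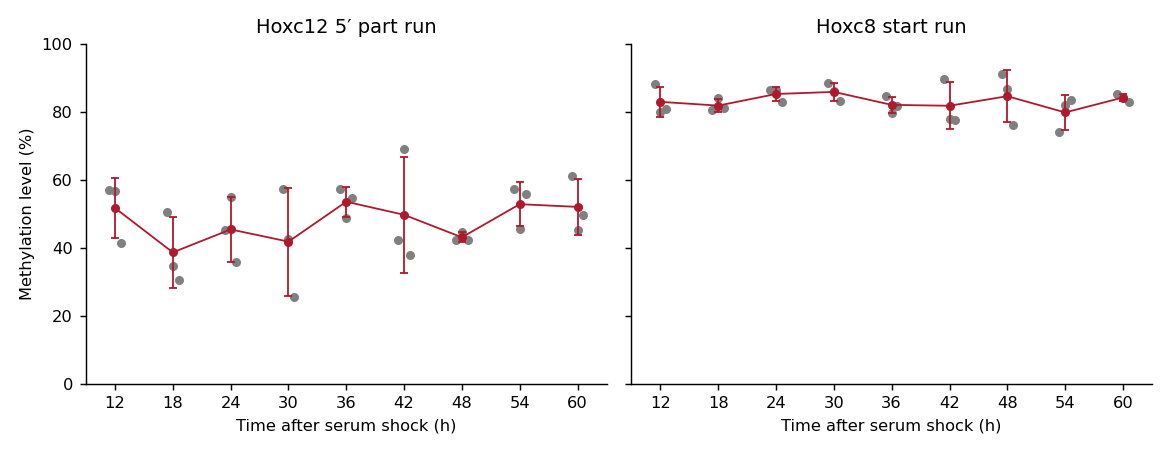
Methylation level (%) against time after the serum shock (h) for the runs at the 5′ part of Hoxc12 and at the start of Hoxc8. Grey points are libraries and red points with bars are means ± SD (n = 3); Hoxc12 means lie between 38.7% and 53.6% and Hoxc8 means between 79.9% and 85.9%.

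The runs with the smallest p-values were all low. The second run inside Hoxc9 (8 positions) led for the rhythm. Its libraries stood at 10.1%, 2.51% and 5.49% at 24 h and at 6.87%, 4.27% and 7.08% at 48 h. At 18 h they stood at 0.930%, 3.32% and 1.37%, and at 42 h at 0, 1.57% and 1.70%. The 2 time points a day apart had the highest means, 6.03% ± 3.82 at 24 h and 6.07% ± 1.56 at 48 h. The libraries of 24 h overlapped with those of every other time point except 42 h. Those of 48 h lay above all libraries of 12 h, 18 h, 30 h, 36 h and 42 h, but overlapped with 24 h, 54 h and 60 h. The fitted 24 h swing around the mean was 1.64 points (SE 0.556, at most 3.21 by its 95% limit), highest 1.64 h after each multiple of 24 h, and did not pass (limma, adjusted p 0.980). Without all libraries numbered 1, 2 or 3 the swing was 1.04, 2.45 and 1.54 points. The same run had the smallest p for any difference between time points (limma, adjusted p 0.990).

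The run upstream of Hoxc12 led for 60 h against 12 h. Its libraries stood at 0.778%, 4.0% and 2.39% at 12 h and at 9.13%, 7.60% and 5.39% at 60 h, without overlap. At 18 h, however, they already stood at 8.07%, 7.82% and 5.08%, and at 48 h they were back at 1.43%, 1.77% and 4.09%. The difference was 4.98 points (SE 1.95, 95% interval 0.903 to 9.07) and did not pass (limma, adjusted p 0.909).

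The first run inside Hoxc10 (9 positions) led for the trend. Its time point means were 0 at 18 h and 30 h, 6.56% ± 3.27 at 42 h, where all 3 libraries were above 0 (10.3%, 5.27% and 4.13%), and 4.33% ± 7.50 at 60 h, where replicate 3 had 13.0% and the other libraries 0. The median library stood at 0. The slope was 4.02 points over 48 h (SE 1.96; limma, adjusted p 0.976), and without replicate 3 of 60 h it was 2.21 points. Without all libraries numbered 1, 2 or 3 it was 5.69, 6.32 and 0.0639 points.

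**Figure D4:**
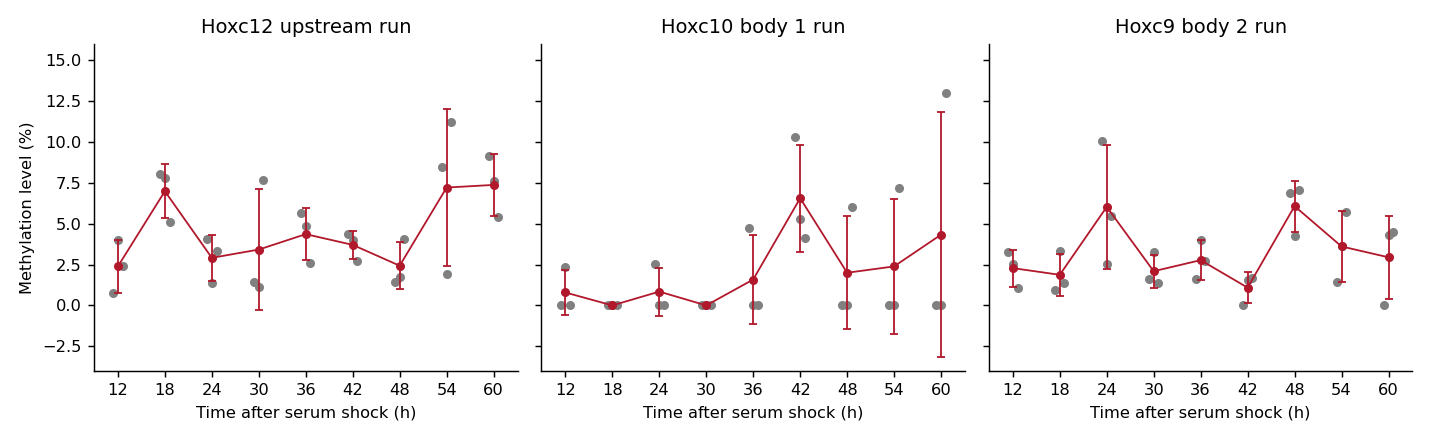
Methylation level (%) against time after the serum shock (h) for the runs with the smallest p for 60 h against 12 h (upstream of Hoxc12), the trend (first run inside Hoxc10) and the rhythm (second run inside Hoxc9). Grey points are libraries and red points with bars are means ± SD (n = 3); levels reach at most 13.0%, and no run passed after adjustment.

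Among the 18 runs the upper 95% limit of the 24 h amplitude lay between 0.828 points (5′ part of Hoxc11) and 11.8 points (5′ part of Hoxc12), and in the 14 low runs it was at most 7.0 points. In the other Hox clusters, 0 of 24 Hoxa, 0 of 23 Hoxb and 0 of 16 Hoxd runs passed any of the 4 limma tests. At an unadjusted p under 0.05 the rhythm was reached by 2 Hoxa, 0 Hoxb and 2 Hoxd runs.

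The mean of the Hoxc cluster holds no position in Hoxc5 or Hoxc4, and the clusters were not matched by paralog group. Over the measured positions, the Hoxc cluster was lower on average than the Hoxa and Hoxd clusters. Its mean level over positions was 16.3% ± 0.825, against 31.4% ± 1.35 for Hoxa, 17.2% ± 0.982 for Hoxb and 33.6% ± 1.44 for Hoxd. It differed from Hoxa by -15.1 points ± 1.59 and from Hoxd by -17.3 points ± 1.63, lower in 27 of 27 libraries each (sign-flip permutation p 1e-05, adjusted 1.5e-05 over 3 comparisons). With each run given equal weight, the difference from Hoxd was -7.13 points. No direction can be given against Hoxb: the difference of -0.965 points ± 1.33 (adjusted permutation p 0.00034) became 0.321 points with positions 1 bp apart averaged and 4.01 points with runs weighted equally. The clusters differed in how their runs were distributed. Hoxc had 14 runs under 10%, 1 between 10% and 75% and 3 above, and Hoxd had 1, 15 and 0. Hoxb had 8, 15 and 0, and Hoxa 13, 4 and 7.

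Gene start windows of the same paralog group could be set side by side in some cases, as values with no test. Hoxc8 stood at 81.9% ± 4.57 and Hoxd8 at 25.2% ± 5.49, Hoxc12 at 47.7% ± 10.1 and Hoxd12 at 37.0% ± 2.55, and Hoxc9 at 4.48% ± 2.69, Hoxb9 at 9.56% ± 2.41 and Hoxd9 at 28% ± 3.28. In group 10, Hoxc10 stood at 3.86% ± 1.52 and Hoxa10 at 2.93% ± 1.68, and in group 11, Hoxc11 at 1.93% ± 1.10 and Hoxa11 at 6.66% ± 1.37. In group 6, Hoxc6 stood at 1.78% ± 2.29, Hoxb6 at 5.57% ± 4.76 and Hoxa6 at 52.1% ± 3.89. In group 13, Hoxc13 stood at 2.19% ± 0.939, Hoxa13 at 2.81% ± 3.35, Hoxb13 at 12.2% ± 2.11 and Hoxd13 at 39.3% ± 7.97. Start windows above 75% were rare in the genome, at 2.20% of 9331. Among Hox genes they were Hoxc8, Hoxa2 (98.4% ± 1.39) and Hoxa5 (95.2% ± 1.49).

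**Figure D5:**
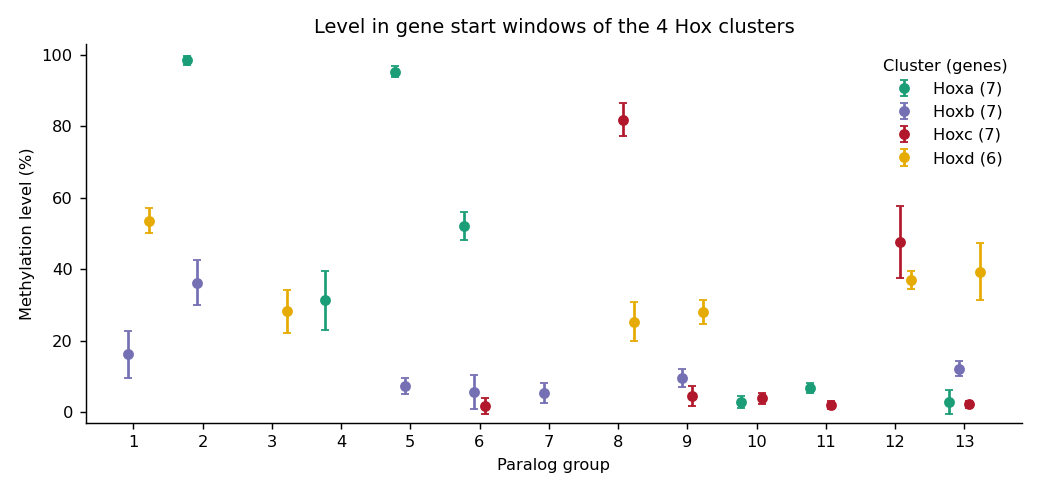
Methylation level (%) of gene start windows in the 4 Hox clusters by paralog group; points are means over 27 libraries, bars ± SD, and colours the clusters with their number of measured genes. Hoxc8 at 81.9% and Hoxc12 at 47.7% stand above the other 5 Hoxc genes, which lie at 4.48% or lower.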

How the data were processed

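The authors deposited a table with a methylation level per position and library, a fraction from 0 to 1, without read counts. The submitters' processing notes name Trim Galore 0.4.0, cutadapt 1.9.1, Bismark 0.14.4, Bowtie2 and build mm10. The sources used here give no settings. Libraries were matched by the time and replicate number in their names. Positions missing from any library were dropped, which left 871894 of 937644 in the table and 508 of 565 in the Hoxc interval. Positions were counted from 1: read so, 242252 of 242295 positions in RefSeq start windows fell on a CpG, against 136173 counted from 0.

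Levels were expressed as percent and averaged over each run of positions (gaps up to 200 bp, at least 3 positions, 18447 runs). limma 3.58.1 in R 4.3.3 was fitted over all runs and libraries: 24 h cosine and sine, time point as a factor, slope, and 60 h minus 12 h, with Benjamini-Hochberg adjustment at 0.05. Within-library differences were tested with sign flips (100000 draws, two-sided, time ignored; Python 3.11.15, numpy 2.4.6, pandas 2.3.3, matplotlib 3.10.9). Gene spans are those of RefSeq on GRCm38.p6, without exons; strand came from RefSeq start windows, for the Hoxc genes from that of Hoxc4 and the shared direction of the cluster. The tests were checked on simulated data.

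Every run is reported; values by time point or library were given for the runs with the smallest p in each test, the 3 highest, lowest and most variable runs and those at gene starts. Start windows of other Hox genes, and positions without a value in every library, were named after their values were seen. Members and lists were chosen with earlier results of these data known. The labels do not say whether replicates were separate cultures, so p-values rest on the spread between these libraries, which may be technical.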

Additional observations from a re-analysis of the deposited data

How the results depend on the processing

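The 4 time tests gave 0 Hoxc runs past the threshold in all 39 alternatives for the rhythm and all 36 for each of the others (M-values, gaps of 100 bp, positions with a value in at least 24 libraries, positions 1 bp apart averaged, library mean, single libraries or replicate numbers left out, and for the rhythm periods of 20 h and 28 h or linear time). The smallest adjusted p of any Hoxc run lay between 0.582 (60 h against 12 h) and 1. With the replicate number as a block the count was also 0 for each test; deviations of same-numbered libraries correlated at 0.00527 on average, and 20 of 27 libraries correlated best with their own number, a hint from the data, while the labels give no pairing. The counts of neighbouring runs and of gene starts stayed within 1.5 times of their main values in every alternative run. With gaps of 100 bp, however, 16 of 25 neighbouring pairs passed, a lower share than the main 15 of 17. The gene start counts take both directions, and on M-values and with the 500 bp window they include Hoxc9, higher at its start. The Hoxc minus Hoxb difference reversed to 0.321 points with positions 1 bp apart averaged and to 4.01 points with run means, where positions carry other weights. Leaving out replicate 3 of 12 h was chosen for the tests of level after seeing the data. The Hoxc6 start call was also lost on M-values (adjusted permutation p 0.0955), with positions 1 bp apart averaged (0.0545) and without the libraries numbered 1 (0.0847), 2 (0.0810) or 3 (0.254); Hoxc9 passed on M-values (0.0420). Levels of runs moved by less than 1 SD in all 108 recomputations. Coverage could not be varied, since depth is unknown.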

Other observations

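The interval held 57 positions with a value in only some libraries, in 9 groups, and at most of them a few libraries were high while most stood at 0. At the start of Hoxc11 (102954502 to 102954582, 7 positions) the mean over 23 libraries was 5.84%, with 17 libraries at 0, 4 above 10% and the highest at 50%. Just before the 3′ part of Hoxc11 (102956281 to 102956358, 9 positions) 17 of 26 libraries stood at 0 and the highest at 72.5%. Inside Hoxc10 (102968124 to 102968196, 5 positions) 14 of 20 stood at 0, 4 exceeded 10% and the highest reached 100%, and inside Hoxc9 (102977300 to 102977330, 3 positions) 17 of 26 stood at 0 and the highest at 55.9%. The group next to the 5′ part of Hoxc12 differed, with 25 of 26 libraries above 10%, a median of 61.4% and a range from 0 to 95.2%. Of the 27 libraries, replicate 3 of 30 h lacked the most Hoxc positions (26), followed by replicate 3 of 12 h (24). The depth behind these values is unknown.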
